A study of Danio rerio with 10 samples.

Results

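Metabotropic glutamate receptors are the G protein-coupled receptors for glutamate. Group I receptors, mGluR5 among them, act through Gq, phospholipase C and release of calcium from stores. Group II (mGluR2 and mGluR3) and group III (mGluR4 and mGluR6 among them) act through Gi and Go proteins and lower cyclic AMP or gate ion channels. In the retina mGluR6 sits on the dendrites of ON bipolar cells, where it senses glutamate released by photoreceptors and keeps the TRPM1 cation channel closed in darkness. Many of these receptor genes are present as a and b copies in zebrafish.

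The genes described here are 8 rows of the count table, out of 25911 genes, whose symbol in the deposited Ensembl annotation is grm2a, grm2b, grm3, grm4, grm5a, grm5b, grm6a or grm6b. The annotation spells grm3 in capitals (GRM3), and it was matched without regard to case. All 8 passed the filter on low counts, which kept 23039 genes. RNA was measured in whole zebrafish larvae of the AB strain background at 3 dpf, in 5 pools of homozygous can4-/- mutants, which carry a mutation of top2a, and 5 pools of wild type (WT) siblings from the same incrosses of heterozygous can4 fish. Each pool held 9 larvae, genotyped singly before pooling, so 45 larvae stand behind each genotype. The homozygous mutation is lethal, maternal top2a mRNA is present in early embryos, and the study names morphological defects and a possible loss of neurons in these mutants. Whole larvae hold every tissue, and in such bulk RNA fewer cells of a type and less RNA per cell cannot be told apart.

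The total count assigned to genes was 29281449 to 45544046 per WT pool and 30098991 to 38106622 per mutant pool. Counts were scaled by TMM effective library sizes (edgeR) to the mean of the 10 pools, and are called normalized counts from here on. Genotypes were compared with edgeR's quasi-likelihood test over all 23039 genes, with a Benjamini-Hochberg adjusted p under 0.05 as the threshold. As a check of the labels, the normalized count of top2a was 8651 ± 248 over the 5 WT pools and 802 ± 311 over the 5 mutant pools (SD), a log2 fold change of -3.43 with a standard error of 0.19. Mutant replicate 2 held more of it, at 1358, than the other mutant pools, at 635 to 688, and without that pool all 8 receptor genes below kept their call. Changes were widespread, with 16861 genes (73.2%) called, of which 8505 were lower and 8356 higher.

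All 8 receptor genes were lower in can4-/- larvae, each with an adjusted p under 0.05 from edgeR, and none was higher. Among all genes tested 36.9% were called lower and 36.3% higher. That near balance depends on the scaling. With RLE size factors, another scaling, 8399 genes were lower and 8461 higher. With library totals 10997 genes were lower and 5919 higher. In each of the 8 every mutant pool lay below every WT pool, which held for 31.4% of all genes, and the genotypes were apart in either direction in 60.8%. At least 2-fold decreases were found in 6 of the 8, against 11.9% of all genes, and at least 4-fold decreases in 3 of the 8 (grm3, grm6a and grm6b), against 2.71%. The median log2 fold change of the 8 genes was -1.72, where that of all genes tested was 0.0027. The values ran from -0.52 for grm4 to -2.22 for grm3. Added over the 8 genes, the normalized count was 4175 to 4554 in WT pools and 1547 to 1874 in mutant pools.

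**Figure D1:**
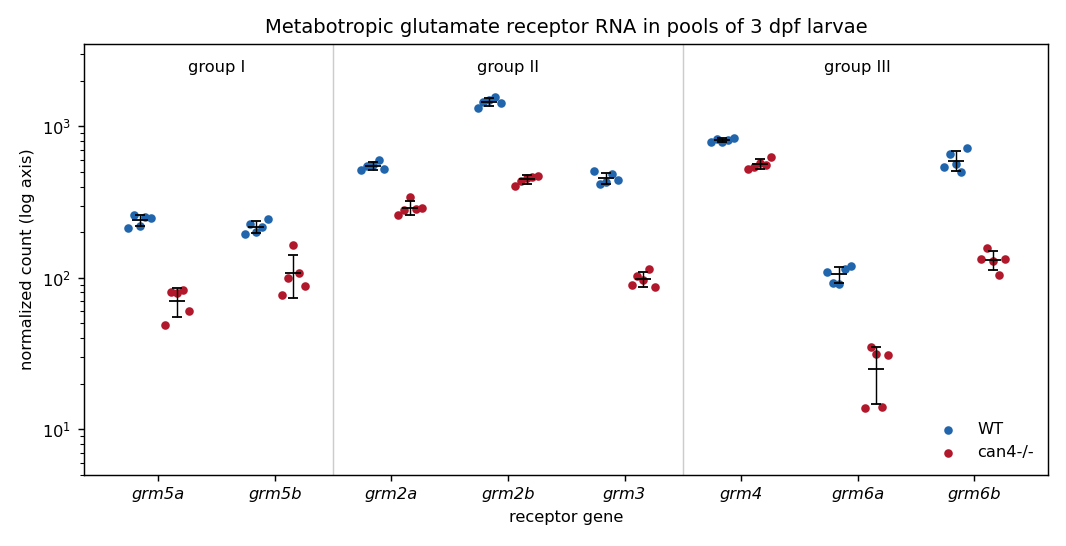
Normalized counts (log axis) of the 8 receptor genes in each pool, with WT in blue and can4-/- in red, and the mean and SD of 5 pools as black bars. In every gene the 5 red points lie below the 5 blue points. The gap is narrowest for grm5b, where the highest mutant pool has 163 and the lowest WT pool 194.

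In group I, grm5a and grm5b encode mGluR5, which couples to Gq. For grm5a (ENSDARG00000004445; chromosome 10, forward strand, 25219728 to 25272236) the WT replicates 1 to 5 had 214, 261, 221, 251 and 250 normalized counts, and the mutant replicates 49, 81, 80, 83 and 60. Mutant replicates 1 and 5 stood below the other mutant pools. The decrease from 239 ± 20.6 to 70.4 ± 15.1 (SD, n = 5) is a log2 fold change of -1.75 with a standard error of 0.13 (adjusted p = 3.90e-08 from edgeR). For grm5b (ENSDARG00000102067; chromosome 15, reverse strand, 43656241 to 43768776) the WT replicates had 194, 227, 200, 216 and 243 normalized counts and the mutant replicates 77, 99, 163, 107 and 88. Mutant replicate 3 was high for its genotype and still below the lowest WT pool. The log2 fold change was -1.004 with a standard error of 0.16 (adjusted p = 7.27e-05 from edgeR), so grm5b stood at the 2-fold limit. It was -1.21 without mutant replicate 3 and -0.91 without mutant replicate 1.

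Group II holds grm2a, grm2b and grm3, which encode receptors that in mammals act mainly at presynaptic sites, mGluR3 also in glia. The gene grm2a (ENSDARG00000004150; chromosome 6, reverse strand, 42051480 to 42112191) had 512, 547, 555, 600 and 521 normalized counts in WT replicates 1 to 5. In mutant replicates 1 to 5 it had 260, 282, 341, 283 and 289. The pools of a genotype were close together, with mutant replicate 3 the highest of the mutants. The mean fell from 547 ± 34.5 to 291 ± 30.0 (SD, n = 5), a log2 fold change of -0.91 with a standard error of 0.074 and an adjusted p of 8.17e-08 from edgeR.

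The copy grm2b (ENSDARG00000007195; chromosome 11, forward strand, 36158134 to 36216651) had 1313, 1446, 1497, 1558 and 1420 normalized counts in WT replicates 1 to 5 and 401, 435, 459, 462 and 473 in mutant replicates 1 to 5. The mean fell from 1447 ± 91.5 to 446 ± 28.6 (SD, n = 5), a log2 fold change of -1.70 with a standard error of 0.059 and an adjusted p of 3.11e-11 from edgeR. The last 954 bases of grm2b overlap rrp9, a gene of rRNA processing on the opposite strand. No source used here states whether reads were counted by strand, so the 2 genes may share reads. The count of rrp9 went the other way, from 747 ± 47.5 to 1035 ± 69.9 (SD, n = 5; log2 fold change 0.47, adjusted p = 5.48e-06 from edgeR).

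The gene grm3 (GRM3 in the annotation, ENSDARG00000031712; chromosome 18, reverse strand, 8972227 to 9046805) had 508, 415, 430, 484 and 445 normalized counts in WT replicates 1 to 5. In mutant replicates 1 to 5 it had 90, 102, 97, 114 and 86. The spread within a genotype was small beside the gap, and WT replicate 1, lowest of the WT pools for grm2a, grm2b, grm5a and grm5b, was the highest for grm3. The mean fell from 456 ± 38.7 to 97.8 ± 10.7 (SD, n = 5), a log2 fold change of -2.22 with a standard error of 0.090 (adjusted p = 1.22e-10 from edgeR).

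Of the group III genes, grm4 encodes mGluR4, in rodents a receptor of granule cell terminals in the cerebellum. It spans 265463 bases on the reverse strand of chromosome 6 from 46981486 to 47246948 (ENSDARG00000040156), the longest span of the 8. Its WT replicates 1 to 5 had 788, 829, 786, 808 and 839 normalized counts, and its mutant replicates 1 to 5 had 522, 540, 574, 560 and 626. The mutant mean of 564 ± 39.8 was 69.7% of the WT mean of 810 ± 23.8 (SD, n = 5), a log2 fold change of -0.52 with a standard error of 0.053 and an adjusted p of 8.12e-07 from edgeR. This was the smallest decrease among the 8.

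The copies of mGluR6, grm6a and grm6b, used as marks of ON bipolar cells, fell to 23.6% and 22.1% of their WT means. Whole larvae were measured, so these decreases cannot be placed in ON bipolar cells. The gene grm6a (ENSDARG00000017742; chromosome 8, forward strand, 8532407 to 8624008) had 109, 92, 91, 115 and 119 normalized counts in WT replicates 1 to 5 and 14, 35, 31, 14 and 31 in mutant replicates 1 to 5. The mutant pools fell apart into low values in replicates 1 and 4, with 11 and 13 raw counts, and higher ones in the other 3. The log2 fold change was -2.06 with a standard error of 0.22 (adjusted p = 1.38e-06 from edgeR). The gene grm6b (ENSDARG00000025671; chromosome 11, forward strand, 25634041 to 25679721) had 538, 656, 566, 496 and 717 normalized counts in WT replicates 1 to 5 and 134, 156, 129, 105 and 134 in mutant replicates 1 to 5. Its WT pools varied more than those of the other well-counted members, with a coefficient of variation of 15.2%, and no mutant pool came near them. The log2 fold change was -2.17 with a standard error of 0.12 (adjusted p = 1.60e-09 from edgeR).

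**Figure D2:**
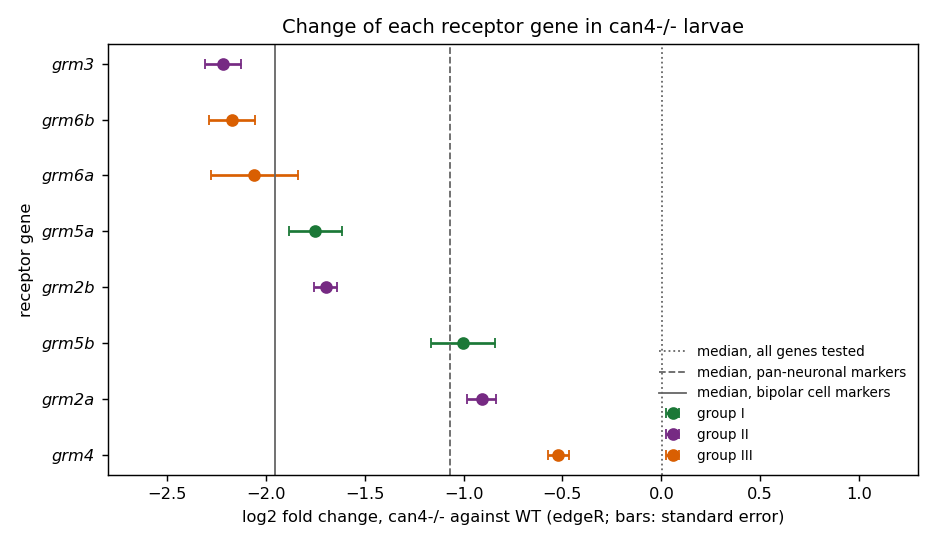
Log2 fold change of each receptor gene in can4-/- against WT (points, edgeR) with its standard error (bars), colored by receptor group, and vertical lines at the medians of all genes tested, the pan-neuronal markers and the bipolar cell markers. The 8 points lie between -0.52 (grm4) and -2.22 (grm3), and groups II and III each hold genes near both ends of the order.

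In the order of the decreases, grm3, grm6b and grm6a (-2.22, -2.17 and -2.06) stood closer to each other than the standard error of 0.22 of grm6a, the gene with the lowest counts. The receptor groups did not sort by size of change. Group I ran from -1.75 to -1.004, group II from -2.22 to -0.91 and group III from -2.17 to -0.52 on the log2 scale.

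Whether the a and b copies of a receptor moved by the same amount was asked in each of 3 pairs from the log2 ratio of their counts within a pool, which needs no scaling between pools. Copies of a pair may share some reads where their sequences are alike. The grm2 copies moved apart. The log2 ratio of grm2a to grm2b was -1.45 to -1.36 in WT pools and -0.71 to -0.43 in mutant pools, so grm2a was lost less, by 0.78 on the log2 scale with a standard error of 0.053 (95% interval 0.67 to 0.91). A two-sided exact permutation test over the 5 WT and 5 mutant pools gave p = 0.00794. That is the smallest p this design allows, and adjusted over the pairs it is 0.0159.

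The grm5 copies moved apart as well. The log2 ratio of grm5a to grm5b was 0.039 to 0.22 in WT pools, a ratio of counts that is not corrected for length. In mutant pools the ratio was -1.03 to -0.29, lowest in replicate 3, where grm5b was high. The difference of the mutant from the WT ratio was -0.73 with a standard error of 0.13 and a 95% interval of -1.05 to -0.44 (p = 0.00794 by the same exact test, adjusted p = 0.0159). In both pairs the genotypes did not overlap in any pool. Among single genes the genotypes were apart in 60.8% of all genes tested. The share of other gene pairs whose ratio stood apart was not counted.

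For the grm6 copies no difference was resolved. The log2 ratio of grm6a to grm6b was -2.49 ± 0.28 over WT pools and -2.48 ± 0.54 over mutant pools (SD, n = 5), a difference of 0.012 with a 95% interval of -0.68 to 0.63 (exact permutation test, two-sided, p = 0.968). The low counts of grm6a go with a wide interval, which ends short of a difference the size of that of the grm2 copies. The interval overlaps that of the grm5 copies (-1.05 to -0.44), so the grm6 copies were not shown to move together.

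**Figure D3:**
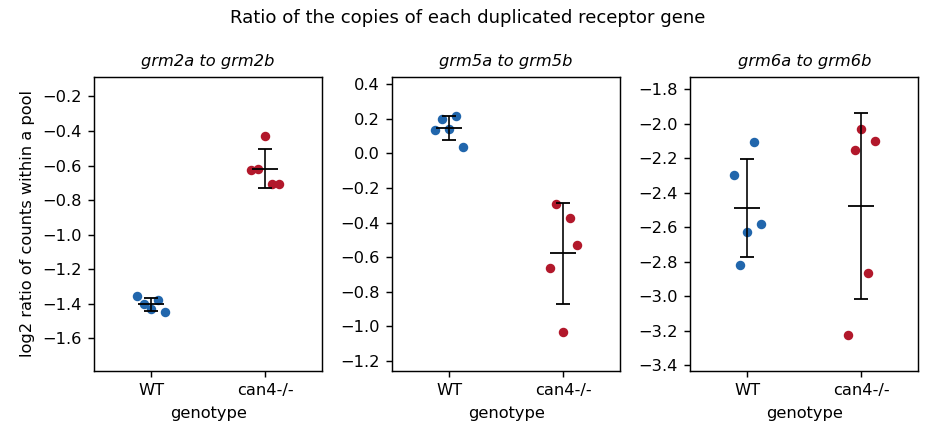
Log2 ratio of the counts of the a copy to the b copy within each pool, for the 3 duplicated receptor genes, by genotype (points: pools, black bars: mean and SD of 5 pools, each panel 1.7 log2 units high). The WT and can4-/- points are apart for grm2 and grm5 and overlap for grm6.

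Genes whose products partner mGluR6 in the ON bipolar cell were lower in these whole larvae as well. Of 19 genes listed for this cascade, 17 were tested, and all 17 were lower, with a median log2 fold change of -2.16. The channel genes trpm1a and trpm1b, named here for their role as the endpoint of the cascade, changed by -1.49 (standard error 0.11) and -0.94 (standard error 0.082). The Go alpha subunit genes gnao1a and gnao1b, which in mouse couple mGluR6 to the channel, changed by -1.09 and -2.16, and both are widely used in neurons. The 2 genes also stand in the Gi list below. Larger decreases were those of the G protein beta subunit genes gnb3b (-7.52) and gnb3a (-4.30) and the gamma subunit gene gng13a (-4.23), with gnb3a at -5.07 without mutant replicate 2. A beta 3 subunit is also known from cone photoreceptors, and all 20 tested genes of a photoreceptor list were lower, with a median of -5.80. That list includes nr2e1 (-1.55), which is not particular to photoreceptors. The cone opsin genes opn1mw1 and opn1sw1 changed by -11.29 and -9.32 and the outer segment gene prph2b by -8.88. Their mutant means were only 4.7, 21.9 and 3.5 normalized counts, so the sizes of these decreases are loosely set. The log2 fold changes also depended on mutant replicate 2, the pool with more top2a, and without it were -12.57, -12.49 and -9.56. The summed normalized count of the list was 63072 to 101762 in WT pools and 921 to 2162 in mutant pools. The regulator rgs11, which speeds the shutoff of Go, changed by -3.11, and the leucine-rich repeat protein genes nyx and lrit3a, needed in mouse for TRPM1 at the dendrite, by -2.99 and -2.87. The other rgs genes of the list fell less, rgs7a and rgs7b by -1.17 and -0.91 and rgs7bpa and rgs7bpb by -0.96 and -0.54. The beta subunit genes gnb5a and gnb5b changed by -0.61 and -2.67. These were again named for their role.

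Markers of bipolar cells fell as well, with 10 of 10 tested genes lower and a median of -1.95. The transcription factor gene vsx1 changed by -3.93 (standard error 0.40), bhlhe22 by -2.78 and neto1 by -3.85, and without mutant replicate 2 vsx1 was at -4.64. Summed over the list, the normalized count was 12390 to 13728 in WT pools and 4072 to 5156 in mutant pools. Relative to the mean log2 CPM of these 10 markers in the same pool, grm6a and grm6b overlapped between genotypes, with mean differences of -0.033 and -0.10. So did grm3 (-0.15), grm5a (0.29) and grm2b (0.36), so this overlap was not particular to the grm6 copies. The receptor genes grm4, grm2a and grm5b instead stood higher relative to these markers in every mutant pool, by 1.53, 1.14 and 1.01. The markers themselves fell, and the median of all genes tested was 0.0027, so a gene that did not change would also stand higher. The share of all genes that did so was not counted. These differences are descriptions, and the part of the bipolar cell markers in the changes of the receptor genes was not tested.

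Neuronal transcripts as a whole were lower too. Of the pan-neuronal markers 26 were tested and all 26 were lower, with a median of -1.07, and their summed normalized count was 123506 to 131314 in WT pools and 58840 to 66120 in mutant pools. The largest decreases were in stxbp1b (-3.40), rab3aa (-1.75) and snap25b (-1.66), genes of vesicle release. Set against the mean log2 CPM of these 26 genes in the same pool, 5 receptor genes still stood lower in every mutant pool than in every WT pool. Those were grm3 (-1.08), grm6b (-1.04), grm6a (-0.96), grm5a (-0.64) and grm2b (-0.57). The genotypes overlapped for grm2a (0.21) and grm5b (0.079). Only grm4 among the 8 stood higher relative to the neuronal markers in every mutant pool, by 0.60. No test was made of these differences, and the share of all genes tested that stood apart on this scale was not counted. Since the markers fell, a gene that did not change would also stand higher.

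Markers of both main neuron types of the cerebellum, where mGluR4 is known from rodents, were mostly lower in these whole larvae. Of 14 Purkinje cell markers tested 12 were lower, 1 was higher and 1 did not pass, with a median of -1.11. The largest decrease was in aldoca, an aldolase gene, at -3.24 (standard error 0.22), and the parvalbumin gene pvalb7, named for its use as a Purkinje cell mark in zebrafish, changed by -1.10. The exception was itpr1b, an IP3 receptor gene, at 0.38 (standard error 0.077). All 11 granule cell markers tested were lower, with a median of -1.80, led by the vesicular glutamate transporter gene slc17a7a (-4.70) and the GABA-A receptor gene gabra6a (-4.69). Several of these genes are also active in other neurons, slc17a7a and neurod1 among them in the retina. The decreases cannot be placed in the cerebellum from whole larvae.

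The enzymes and G proteins that group I receptors work through did not fall as a block. Of 22 tested genes of Gq signaling and its scaffold, 12 were lower, 6 were higher and 4 did not pass, with a median of -0.23. On the lower side were the scaffold gene homer3a (-1.08), the G alpha q gene gnaq (-0.97) and the channel gene trpc1 (-0.78). On the higher side were gna14, a Gq family gene, at 1.07 (standard error 0.078), and homer2, another scaffold gene, at 0.73 (standard error 0.10). Of 27 genes of Gi and Go signaling, 18 were lower, 6 were higher and 3 did not pass, with a median of -0.48. The largest decreases were in gnao1b (-2.16), the adenylyl cyclase gene adcy1b (-1.93) and rgs8 (-1.80), and the largest increases in adcy9 (0.83) and rgs12b (0.39). The potassium channel genes kcnj3a, kcnj3b, kcnj6 and kcnj9, named here as targets of Gi-coupled receptors, changed by -1.19, -1.34, -1.01 and -1.13. Of the Gi alpha subunit genes, also named for their role, gnai1, gnai2a and gnai3 were higher (0.21, 0.37 and 0.30). The copy gnai2b was lower (-0.91). The synaptic adhesion genes elfn1b and elfn2a, whose mammalian counterparts bind group III receptors across the synapse, changed by -1.39 and -0.84.

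**Figure D4:**
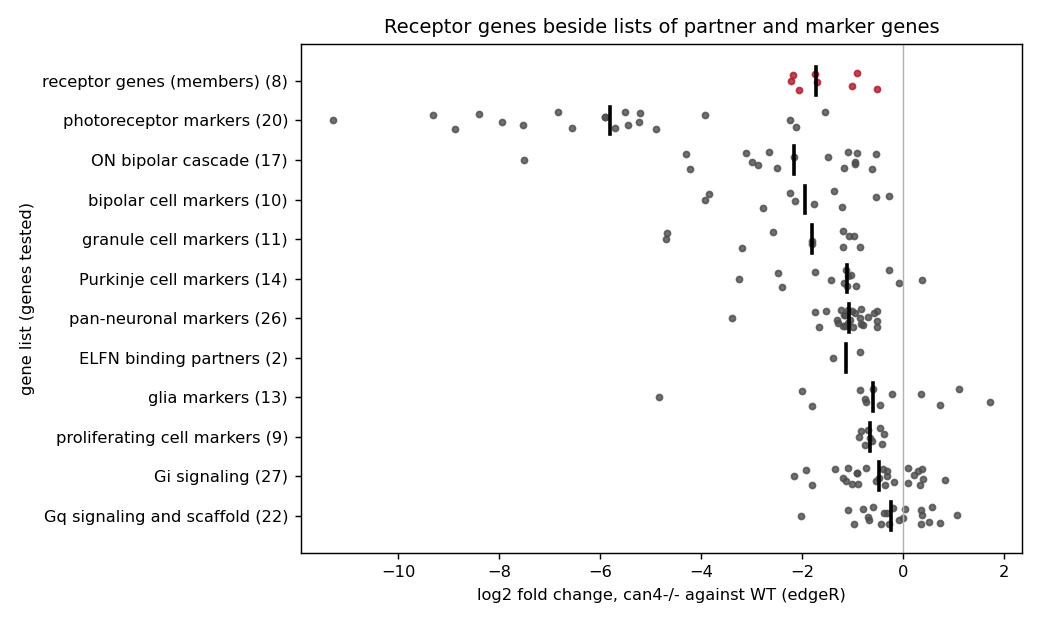
Log2 fold change (edgeR) of the 8 receptor genes (red) and of each tested gene of 11 lists of partner and marker genes (gray), 1 point per gene and a black bar at each list's median. The receptor genes have a median of -1.72, between those of the granule cell markers (-1.80) and the Purkinje cell markers (-1.11), and the Gq and Gi lists hold points on both sides of 0.

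Glial genes, relevant since mGluR3 and mGluR5 are also found in glia of mammals, were mixed. Of 13 tested, 9 were lower and 4 higher, with a median of -0.60. The glutamate transporter genes slc1a2a and slc1a2b changed by -4.84 and -1.81. The listed gene rlbp1a changed by -2.01 and its copy rlbp1b by -0.85. The transporter gene slc1a3b and the glutamine synthetase gene glulb were higher, by 1.72 and 1.10. All 9 markers of proliferating cells tested were lower, none by 2-fold or more, with a median of -0.65.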

How the data were processed

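RNA of 10 pools was sequenced by the authors from rRNA-depleted stranded total RNA libraries, aligned with STAR (2.7.0f, GRCz11, per the submitters' processing notes) and deposited as raw counts per gene, not normalized. The counting program was not given in the sources used here. Also deposited were normalized values, rlog values and the authors' DESeq2 comparison (fold changes and p-values), which were not used.

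Genes were kept by edgeR's filterByExpr (minimum count 10, minimum total 15), which left 23039. In R 4.3.3, edgeR 4.0.16 gave TMM factors and quasi-likelihood tests on genotype without covariates, and was tested on simulated data. A standard error is the absolute log2 fold change divided by the square root of F. Pair ratios used a pseudocount of 0.5, an exact permutation test, intervals of the shifts that test does not reject, and Benjamini-Hochberg adjustment over the 4 pairs of the design, with p = 1 entered for the one not reported.

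At these depths members had 11 to 2063 raw counts. Pools of a genotype differed by more than sampling noise (chi-square per degree of freedom 4.79 to 27.2 in 20 pairs), and each counted as 1 replicate. Members and lists were chosen with earlier results of these data known. Named genes are the members, top2a, the 3 genes most alike grm3, which has the largest decrease of the members described, and genes from the lists. List genes were drawn from the 3 largest decreases and 2 largest increases per list past the threshold with a mean normalized count of at least 50. Not all of these are named. In the Purkinje cell list only aldoca and itpr1b are named by this rule, and in the proliferating cell list none. Genes marked in the text as named for their role, and rlbp1b and nr2e1, were chosen after their values were seen. Alternatives were DESeq2 1.42.0, limma voom 3.58.1, RLE factors, library totals, other filters, a replicate block and leaving out pools. Transcript lengths were not used here, so levels are not compared between genes, and no sequences are shown. Of the 10 members, 2 are not reported here, nor is 1 bipolar cell marker by itself, which still counts in its list.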

Additional observations from a re-analysis of the deposited data

Results flagged for a closer look

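In 24 groups of 5 pools (the 8 receptor genes and top2a in each genotype, and the 3 pair ratios in each genotype), 2 groups had a pool far from the others, where chance gives about 1 in 20. Both concern top2a. WT replicate 1 had 9082 normalized counts against 8498 to 8646 in the other WT pools, and can4-/- replicate 2 had 1358 against 635 to 688 in the other mutant pools. With both pools left out, an alternative chosen after seeing the data, all 8 receptor genes were lower at an adjusted p under 0.05 from edgeR, from -0.51 (grm4) to -2.27 (grm6b) on the log2 scale. No receptor gene had a pool past the limit in either genotype.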

How the results depend on the processing

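All 8 receptor genes were lower and 0 were higher under each of 18 alternatives, and the highest adjusted p of any of them was 0.000375 (grm5b with edgeR, without both WT replicate 1 and can4-/- replicate 2). Library totals in place of TMM shifted the median of all genes to -0.17, and grm4 was then at -0.70. Same-numbered pools did not deviate together over the genes tested (correlations -0.022 to 0.033). This gave no sign of a pairing, but it cannot exclude one that touches few genes. With a replicate block the count of lower receptor genes was 8. For the pair ratios the block gave 0.78 (grm2a to grm2b) and -0.73 (grm5a to grm5b), each with an adjusted p of 0.125 from an exact sign-flip test, which over 5 pairs cannot go below 0.0625 unadjusted. Leaving out each pool in turn gave -0.099 to 0.20 for grm6a to grm6b, unresolved in sign, 0.74 to 0.81 for grm2a to grm2b and -0.80 to -0.61 for grm5a to grm5b. The cause was not tested. Counts of the 11 lists stayed within 1.5 times in all 396 values tried. Depth limits grm6a most, with 11 to 36 raw counts in mutant pools.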

Other observations

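The group III genes GRM7, grm8a and grm8b, which are not among the members, were also measured and are named for their group and not by their values. From WT to mutant pools the mean normalized count of GRM7 went from 580 ± 26.6 to 381 ± 34.2, that of grm8a from 437 ± 14.1 to 181 ± 26.8 and that of grm8b from 382 ± 26.1 to 180 ± 15.6 (SD, n = 5). Their log2 fold changes were -0.61, -1.27 and -1.09 with standard errors of 0.066, 0.089 and 0.078 from edgeR. In each gene all mutant pools lay below all WT pools, which held for 31.4% of all genes tested. All 3 decreases lie between those of grm4 (-0.52) and grm6a (-2.06).

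The genes whose log2 CPM over the 10 pools was most like that of grm3 (GRM3), the receptor gene with the largest decrease described here, were fndc7rs4 (Pearson r = 0.999), fstl4 (0.996) and rgma (0.996), out of 15383 genes compared. After each genotype's mean was taken off, r was 0.911, 0.715 and 0.637. All genes share the same 10 libraries, and the likeness is a description. On the log2 scale fndc7rs4 changed by -2.24 (standard error 0.097), fstl4 by -1.10 and rgma, a guidance gene, by -0.66.

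Of the 5 WT pools, replicate 1 had the lowest normalized count in 4 of the 8 receptor genes, and of the 5 mutant pools, replicate 1 had the lowest in 6. Mutant replicate 2, where top2a was highest among the mutants, had the highest count in 2 of the 8 and the lowest in 0.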
